A study of Mus musculus with 9 samples.

Results

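The proteasome subunit genes were taken as every gene whose symbol is Psm, a letter from a to g, and a number, and 48 of the 26214 genes of the expression table met this rule. They cover the protein-degrading core, its immune-type catalytic subunits, the regulatory particle, the activators, 1 inhibitor-type regulator and the dedicated assembly chaperones. The study sequenced RNA of Sca-1+ cells, negative for CD31 and CD45, that were isolated with magnetic beads from male C57Bl/6J mice 8 to 12 weeks old. Fibro-adipogenic progenitors (FAPs) came from quadriceps on day 1 after an injection of NaCl (2 libraries) or of glycerol, which injures the muscle (injured FAPs, 3 libraries). Adipose stromal cells (ASCs, 3 libraries) came from the subcutaneous adipose tissue of NaCl-injected mice. The paper describes triplicates made from cells pooled from 3 animals. It does not make clear whether each library had its own pool or the libraries of a group shared a pool. A single library of the CD31+CD45+ cells of muscle entered no test. Reads assigned to genes numbered 24052508 and 24164447 for the FAP libraries, between 26698572 and 27028114 for injured FAPs, between 27349184 and 27481573 for ASCs and 13091077 for CD31+CD45+ cells. All levels below are normalized read counts, called values, in which 3 reads stood for 2.29 to 4.71.

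The proteasome is the main protease of the cytosol and nucleus and degrades proteins that carry chains of ubiquitin. Its core is a barrel of stacked rings: alpha subunits form the gates at the ends, and beta subunits, of which Psmb5, Psmb6 and Psmb7 carry the catalytic sites, line the inside. The regulatory particle, made of an ATPase base and a lid, binds ubiquitinated proteins, removes the ubiquitin and unfolds them, and interferon induces immunoproteasome subunits that replace the catalytic ones and alter the peptides offered to class I molecules.

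The sorted identity was checked with markers. All 6 stromal markers (Pdgfra, Ly6a, Cd34, Dcn, Col1a1 and Col3a1) were above 0 in all 8 sorted libraries and took 6.68 and 7.29% of the reads in FAPs, 3.12, 3.48 and 3.12% in injured FAPs and 8.15, 8.79 and 9.10% in ASCs, against 0.304% in CD31+CD45+ cells. Injured FAP replicate 2 stood apart by its leukocyte markers, whose values summed to 3415 there and to 765 and 657 in the other injured FAP libraries. Of the 48 proteasome genes, 46 reached a mean value of 10 over the 8 sorted libraries and were tested with 13601 genes in all. Psmb11, the thymus-specific beta subunit, was at 0 in every library, and Psma8, the testis-specific alpha subunit, ranged from 0 to 2.32 in the 8 sorted libraries and was at 4.71 in CD31+CD45+ cells, which is 3 reads.

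The comparison of injured FAPs with FAPs asks what changes in the progenitors 1 day after muscle injury, and proteasome genes rose almost as a whole. limma called 43 of the 46 tested genes higher in injured FAPs, where 24.9% of all genes tested were. A gene was called when its fold change exceeded 0.58 on the log2 scale and its Benjamini-Hochberg adjusted p was below 0.05. The genes called lower were 0 by limma, 0 by edgeR and 0 by DESeq2, and 0 had an unadjusted p under 0.05 below FAPs, where limma called 27.7% of all genes lower. Other scalings of the libraries gave 43 to 45 genes higher and 0 lower by limma. The median log2 fold change of the 46 genes was 1.10, a 2.14-fold difference, against -0.05 over all genes. SE below stands for the standard error of a log2 fold change. Proteasome genes also moved by similar amounts, since the interquartile range of their log2 fold changes was 0.34 and that of all genes 1.40. In 45 of the 46 genes, all but Psmf1, every injured FAP library was above both FAP libraries, which held for 40.4% of all genes tested. The reads of the 46 genes made up 0.163 and 0.157% of all reads in FAPs and 0.368, 0.369 and 0.396% in injured FAPs. No scaling of the libraries changes these shares. The p-values measure the spread between these pooled libraries. If the libraries of a group shared a pool, that spread leaves out differences between animals. Bulk RNA cannot tell a change in the make-up of the sorted cells from a change of RNA per cell.

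**Figure D1:**
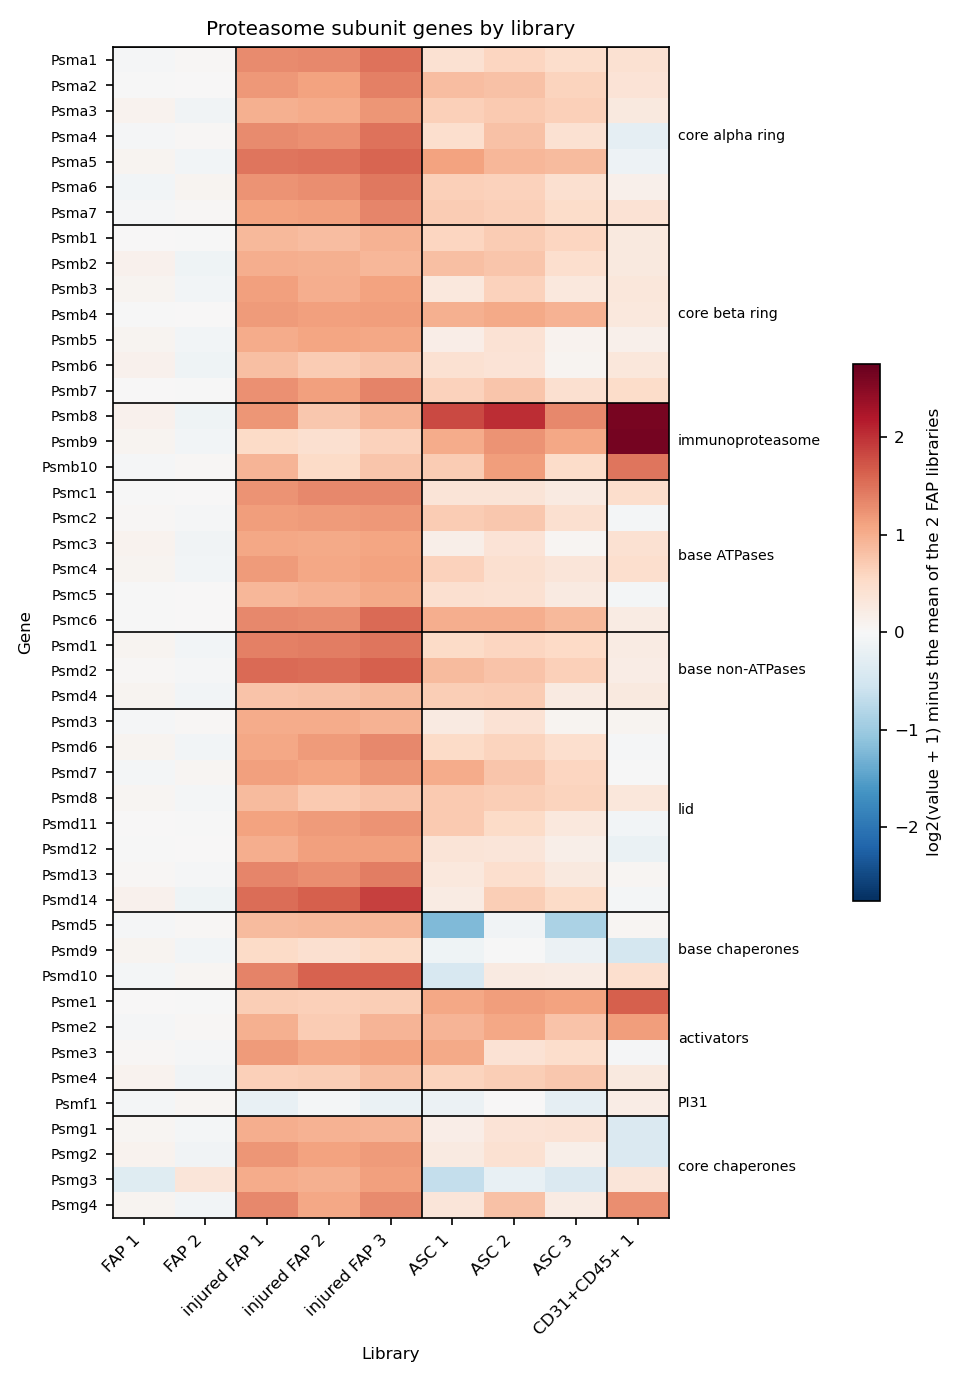
Heat map of the 46 tested proteasome genes (vertical axis, by subunit class) in the 9 libraries (horizontal axis), colored by log2(value + 1) minus the mean of the 2 FAP libraries. The injured FAP columns are above the FAP mean for 45 genes, the ASC columns are strongest for Psmb8, Psmb9 and Psme1, and the CD31+CD45+ column is strongest for Psmb8 and Psmb9.

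All 7 alpha-ring genes rose in injured FAPs, by 1.07 (Psma3) to 1.53 (Psma5) on the log2 scale with a median of 1.32. Psma5, which had the largest rise of the ring, had values of 469.7 and 426 in FAPs, 1251, 1266 and 1358 in injured FAPs and 959, 847 and 822 in ASCs. The 3 groups did not overlap for Psma5, with the lowest levels in FAPs and the highest in injured FAPs. Between these, limma gave a log2 fold change of 1.53 (SE 0.11, adjusted p = 1.88e-06). Psma3, another alpha subunit, had the smallest rise, from 862 and 763 in FAPs to 1592, 1649 and 1887 in injured FAPs, with 1271, 1339.9 and 1270.4 in ASCs. Its log2 fold change was 1.07 (SE 0.11, adjusted p = 1.50e-05) by limma, and no library of one group reached into another. Levels are comparable between genes only per kilobase of exon. On that scale Psma4 was the most abundant alpha-ring gene in each sorted group, at 698 per kb in FAPs, 1789 in injured FAPs and 1041 in ASCs. Psma2, whose joined exons have 2911 bases, was the least abundant on that scale, at 212, 499 and 357 per kb.

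The 7 genes of the constitutive beta ring rose as well, with a median log2 fold change of 1.06. Psmb5, the subunit with the chymotrypsin-like site, had values of 462 and 416 in FAPs, 891, 925 and 921 in injured FAPs and 494, 574 and 472 in ASCs. Injured FAPs lay well above the other groups, while ASCs were only slightly above FAPs. The log2 fold change of Psmb5 by limma was 1.06 (SE 0.12, adjusted p = 3.15e-05) in injured FAPs and 0.22 (SE 0.12, adjusted p = 0.132), not called, in ASCs. Psmb6, which carries the caspase-like site, had values of 1116 and 950.2 in FAPs, 1820.3, 1672 and 1744 in injured FAPs and 1369, 1339.9 and 1088 in ASCs, the smallest rise of the ring. Its ASC and FAP libraries overlapped, whereas each injured FAP library was above all others. Psmb6 had a log2 fold change against FAPs of 0.76 (SE 0.13, adjusted p = 0.000397) by limma and of 0.29 (SE 0.13, adjusted p = 0.0678), not called, in ASCs. Psmb7, with the trypsin-like site, had the largest rise, with values of 692 and 680.2 in FAPs, 1645, 1508 and 1781 in injured FAPs and 1068, 1156 and 938 in ASCs. The groups of Psmb7 did not overlap, and limma gave 1.26 (SE 0.12, adjusted p = 9.03e-06) on the log2 scale for injured FAPs against FAPs. In ASCs the log2 fold change of Psmb7 by limma was 0.61 (SE 0.12, adjusted p = 0.00127), a call that was lost without ASC replicate 2 (0.54). It was also lost by edgeR (0.57), with quantile normalization (0.47), a common 75th percentile (0.40) or a common total (0.05). Part of its reads could stem from Nek6, a gene that overlaps it. Per kb of exon, Psmb2, a structural beta subunit, was the most abundant gene of the ring in each sorted group (1332 in FAPs, 2587 in injured FAPs, 2142 in ASCs) and Psmb5 the least (488, 1015 and 571).

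The promoters were searched because so many members moved together. RefSeq windows of GRCm38.p6, from 250 bases before to 50 after the start, were at hand for 40 of the 48 genes, in 43 windows, and without one were Psmb1, Psmb2, Psmb7, Psma8, Psmc3, Psmd3, Psmd7 and Psmg2. TGACNNNGC, the core of the antioxidant response element that Nfe2l1 and Nfe2l2 bind, was found on either strand in 6 proteasome windows (14.0%), those of Psmb5, Psmb6, Psmc6, Psmd9, Psmd12 and Psme4, and in 12.4% of all 32851 windows. CCAAT, the NF-Y box, was in 14 (32.6%) against 37.4% of all, GAAANNGAA, the core of the interferon-stimulated response element, in 7 (16.3%) against 8.56%, and TTCNNNGAA, the gamma-activated site, in 3 (6.98%: Psmb8, Psmd2 and Psmg1) against 8.30%. Matches were counted for each motif separately, also where motifs overlap. A match is a description of the letters and not a bound site, and no match says only that these letters are not in the window. The stretches with TGACNNNGC of the catalytic genes Psmb6 and Psmb5 and of the ATPase gene Psmc6, which had the largest rise of its class, are given 5′ to 3′ on the gene's strand with the match in capitals. They lie outside all gene models, at chr11:70525288-70525356 (plus strand) for Psmb6, chr14:54618023-54618102 (minus strand) for Psmb5 and chr14:45329574-45329665 (plus strand) for Psmc6, where the match reads on the opposite strand, and the matches begin 9, 47 and 227 bases before the RefSeq start.
Psmb6: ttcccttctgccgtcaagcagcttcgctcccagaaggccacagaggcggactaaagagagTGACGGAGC
Psmb5: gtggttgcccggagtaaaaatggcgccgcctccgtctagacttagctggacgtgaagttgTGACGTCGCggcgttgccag
Psmc6: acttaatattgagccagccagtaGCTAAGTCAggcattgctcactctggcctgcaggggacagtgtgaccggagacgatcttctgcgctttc

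In the regulatory particle all 17 tested genes of the base and lid rose in injured FAPs. The 6 base ATPases, which unfold the substrate and open the gate of the core, had a median log2 fold change of 1.14. Psmc6 led them, with values of 737 and 740.4 in FAPs, 1851, 1809 and 2187 in injured FAPs and 1485, 1480.3 and 1368 in ASCs. All ASC libraries had clearly more Psmc6 than both FAP libraries and injured FAPs were higher still. Its log2 fold change by limma was 1.39 (SE 0.11, adjusted p = 2.87e-06) in injured FAPs and 0.97 (SE 0.11, adjusted p = 3.69e-05) in ASCs, the latter 0.40 and not called with a common total. Psmc5 had the smallest rise of the ATPases, from 798 and 819 in FAPs to 1533, 1560.0 and 1675 in injured FAPs, with 1092, 1086 and 965 in ASCs. Its groups did not overlap, and limma gave 0.97 (SE 0.10, adjusted p = 1.71e-05) on the log2 scale for injured FAPs against FAPs.

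The 3 other base genes, Psmd1, Psmd2 and Psmd4, had a median log2 fold change of 1.42. Psmd2, a scaffold that docks ubiquitin-binding factors, had values of 1996 and 1909 in FAPs, 5742, 5675 and 6070.4 in injured FAPs and 3570.0, 3363 and 3088 in ASCs. Each injured FAP library of Psmd2 was above every ASC library and each ASC library above both FAP libraries. Psmd2 had log2 fold changes of 1.58 (SE 0.10, adjusted p = 7.58e-07) in injured FAPs and 0.77 (SE 0.10, adjusted p = 7.14e-05) in ASCs by limma. In ASCs the call was lost with quantile normalization (0.41), a common 75th percentile (0.56) or a common total (0.21). Psmd4, the intrinsic ubiquitin receptor, had values of 1113 and 1009 in FAPs, 1823, 1844 and 1924 in injured FAPs and 1690.2, 1708 and 1253 in ASCs. The step of Psmd4 from FAPs to injured FAPs was the smallest of the base, 0.81 (SE 0.14, adjusted p = 0.000466) by limma, and ASC replicate 3 was closest to the FAP libraries. In ASCs limma gave 0.53 (SE 0.14, adjusted p = 0.00683), not called, and Psmd4 was called without ASC replicate 3 (0.68), without FAP replicate 1 (0.60) or with a replicate block (0.60).

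The 8 lid genes rose with a median of 1.16 on the log2 scale. Psmd14, the deubiquitinase that releases ubiquitin chains from the substrate, had the largest rise of all 46 genes, with values of 525 and 440.3 in FAPs, 1397, 1499.6 and 1759.6 in injured FAPs and 559, 766 and 689 in ASCs. Injured FAPs were far above the other libraries, while ASC replicate 1 came close to FAP replicate 1. By limma the log2 fold change of Psmd14 was 1.68 (SE 0.16, adjusted p = 8.66e-06) in injured FAPs and 0.47 (SE 0.16, adjusted p = 0.0250), not called, in ASCs, where it was called without ASC replicate 1 (0.59) or without FAP replicate 1 (0.59). Psmd8, a structural lid subunit, had the smallest rise, with values of 1889 and 1758 in FAPs, 3336, 3024 and 3124 in injured FAPs and 2997, 2926 and 2797 in ASCs. The ASC and injured FAP libraries of Psmd8 lay close together above FAPs, at log2 fold changes of 0.79 (SE 0.09, adjusted p = 3.70e-05) in injured FAPs and 0.67 (SE 0.09, adjusted p = 0.000140) in ASCs by limma. The rise of Psmd8 in ASCs was lost under each of 3 other scalings, at 0.33 with quantile normalization, 0.46 with a common 75th percentile and 0.11 with a common total per library. Per kb of exon Psmd8 was the most abundant lid gene in every sorted group, at 1206 in FAPs, 2091 in injured FAPs and 1922 in ASCs.

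**Figure D2:**
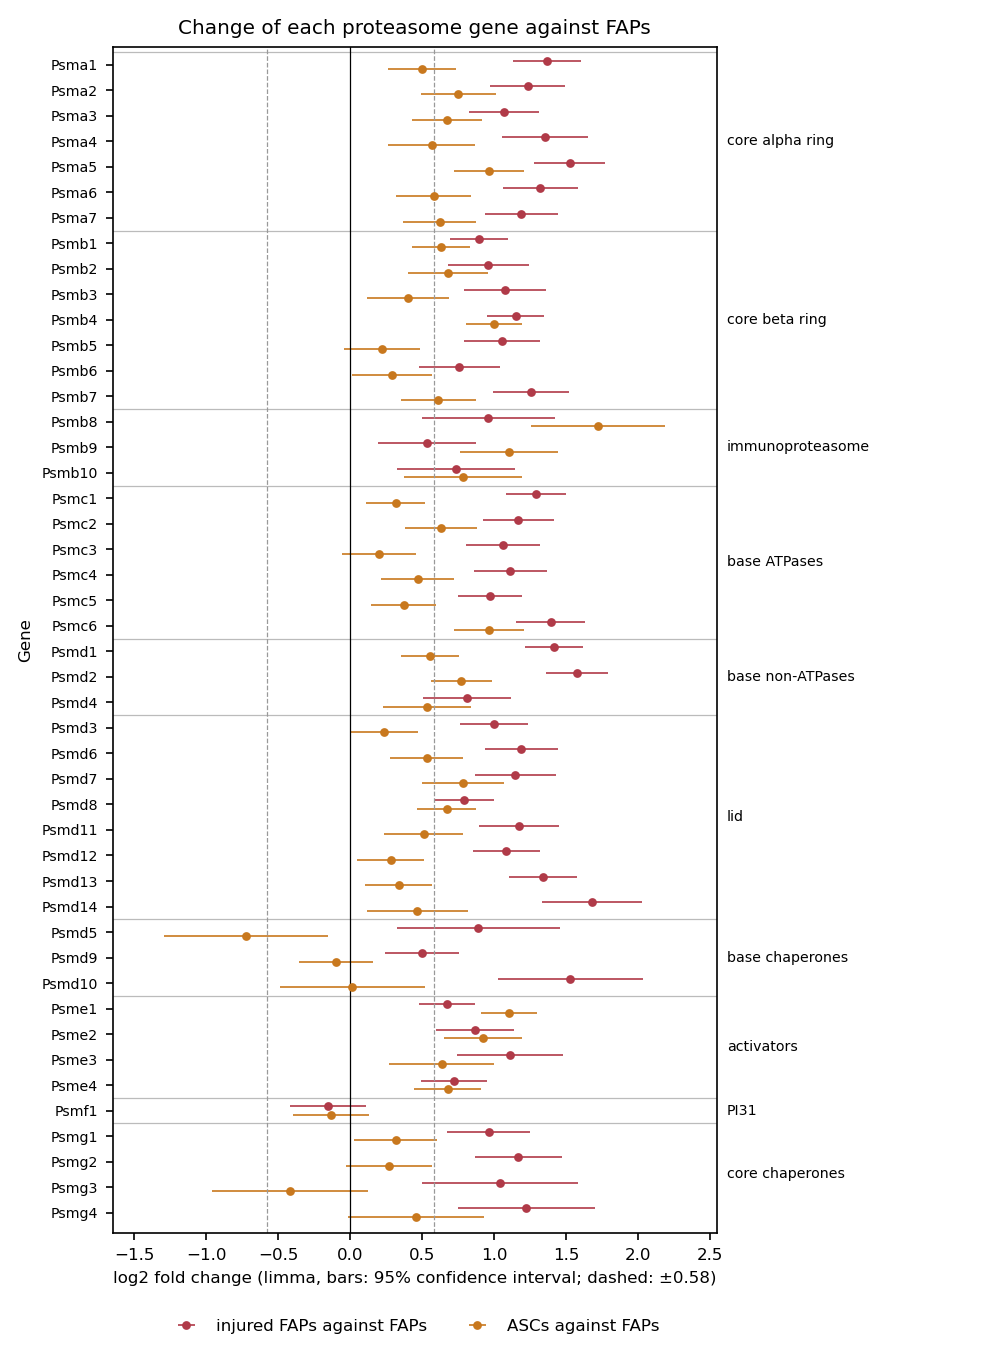
Log2 fold change against FAPs (horizontal axis, limma, bars: 95% confidence interval, dashed lines: 0.58 in either direction) of each of the 46 tested proteasome genes (vertical axis) in injured FAPs and in ASCs. Injured FAPs run from -0.15 (Psmf1) to 1.68 (Psmd14) and ASCs from -0.72 (Psmd5) to 1.72 (Psmb8), and with a common total per library 25 of the 46 ASC values fall below 0.

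Most assembly factors rose as well. All 4 chaperones of the core, Psmg1 to Psmg4, which pair and help to close the alpha rings, rose in injured FAPs with a median log2 fold change of 1.11. Psmg1 had values of 225 and 209 in FAPs, 432, 423 and 416 in injured FAPs and 246, 279.8 and 287 in ASCs. The injured FAP libraries of Psmg1 were all above the ASC and FAP libraries, and limma gave 0.96 (SE 0.13, adjusted p = 9.83e-05) on the log2 scale against FAPs. Psmg4 had the largest rise of the 4, from 77.0 and 68.7 in FAPs to 182, 153 and 180.0 in injured FAPs, with 92.2, 128 and 85.4 in ASCs. Its log2 fold change was 1.22 (SE 0.21, adjusted p = 0.000568) by limma, with no overlap between injured FAPs and FAPs. Of the 3 chaperones of the ATPase base, Psmd10, also known as gankyrin, had values of 91.3 and 98.8 in FAPs, 245, 294 and 293 in injured FAPs and 69.8, 113 and 112 in ASCs. Psmd10 was low in FAPs and ASCs alike, where the libraries overlapped. Its log2 fold change by limma was 1.53 (SE 0.23, adjusted p = 0.000196) in injured FAPs and 0.02 (SE 0.23, adjusted p = 0.959) in ASCs. Psmd5, which holds ATPases during base assembly, had values of 492 and 513 in FAPs, 924, 928 and 946 in injured FAPs and 216, 472 and 274 in ASCs. It was highest in injured FAPs, and the ASC libraries scattered widely below the FAP libraries. Its rise in injured FAPs, 0.89 (SE 0.26, adjusted p = 0.0107) by limma, was not called without FAP replicate 1 (0.86, adjusted p = 0.0597, and 5.56e-06 to 0.0597 over all alternatives). Psmd9, the third base chaperone, was not called in injured FAPs, with values of 425 and 383 in FAPs, 579, 549 and 586 in injured FAPs and 370.2, 398 and 363 in ASCs and a log2 fold change of 0.50 (SE 0.12, adjusted p = 0.00325) by limma. Its injured FAP libraries were nonetheless all above the FAP and ASC libraries, which overlapped. With a common total Psmd9 was called higher in injured FAPs (0.63). Per kb of exon both groups of chaperones stayed below the rings. The median level per kb in FAPs, injured FAPs and ASCs was 114, 212 and 72.9 over the base chaperones and 166, 358 and 213 over the core chaperones. Over the alpha ring it was 565, 1418 and 832.

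The 4 activators, which open the core without the regulatory particle, rose in injured FAPs with a median log2 fold change of 0.79. Psme1, the alpha subunit of the interferon-inducible PA28 cap, had values of 898 and 886 in FAPs, 1437, 1414 and 1424 in injured FAPs and 1856, 1976 and 1932 in ASCs. The order of Psme1 differed from that of most subunits, since ASCs were highest, injured FAPs intermediate and FAPs lowest, with no overlap. By limma its log2 fold change was 0.68 (SE 0.09, adjusted p = 8.01e-05) in injured FAPs, 1.11 (SE 0.09, adjusted p = 3.49e-06) in ASCs and -0.43 (SE 0.08, adjusted p = 0.000690), not called, for injured FAPs against ASCs. With a common total the last difference turned to 0.27, not called. Psme2, the beta subunit of the same cap, had values of 527 and 546 in FAPs, 1052, 872 and 1019.8 in injured FAPs and 1018, 1119 and 929 in ASCs. Its level is uncertain, since reads could be split with the near-identical copy Psme2b. Psme2 was at a similar level in injured FAPs and ASCs and lower in both FAP libraries. For Psme2 limma gave 0.87 (SE 0.12, adjusted p = 0.000140) in injured FAPs and 0.93 (SE 0.12, adjusted p = 0.000111) in ASCs on the log2 scale. Psme3, the nuclear PA28 gamma, had values of 1638 and 1566 in FAPs, 3585, 3347 and 3454 in injured FAPs and 3283, 2110.1 and 2236 in ASCs. ASC replicate 1 of Psme3 came close to the injured FAP level, while the other ASC libraries lay between injured FAPs and FAPs. By limma Psme3 had a log2 fold change of 1.11 (SE 0.16, adjusted p = 0.000194) in injured FAPs and 0.64 (SE 0.16, adjusted p = 0.00694) in ASCs. The latter was not called without ASC replicate 1 (0.44) or without FAP replicate 2 (0.61), nor with quantile normalization (0.32), a common 75th percentile (0.43) or a common total (0.07). Psme4, the large activator PA200, had values of 1318 and 1159 in FAPs, 1952, 1969 and 2208 in injured FAPs and 1890.4, 1963 and 2081 in ASCs. Injured FAPs and ASCs overlapped and both were above FAPs, with log2 fold changes of 0.72 (SE 0.10, adjusted p = 0.000162) and 0.68 (SE 0.10, adjusted p = 0.000303) by limma. The call of Psme4 in ASCs was lost with quantile normalization (0.43), a common 75th percentile (0.47) or a common total (0.11), and with the last those of Psme1 (0.54) and Psme2 (0.36) were lost too. Psmf1, the regulator PI31, stood apart from all other tested genes by a mean in injured FAPs below that of FAPs, with values of 562.9 and 609 in FAPs, 505, 562.6 and 513 in injured FAPs and 524, 586 and 496 in ASCs. Each injured FAP library of Psmf1 was below both FAP libraries, 1 of them only barely, and ASCs overlapped both groups. limma gave -0.15 (SE 0.12, adjusted p = 0.275) in injured FAPs and -0.13 (SE 0.12, adjusted p = 0.361) in ASCs, neither called, though in ASCs Psmf1 was called lower with a common total (-0.70).

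The comparison of ASCs with FAPs asks how uninjured progenitors of fat and muscle differ, and here the proteasome genes differed less and their calls depended on the scaling of the libraries. With the deposited values 21 of the 46 genes were called higher in ASCs by limma (23.4% of all genes tested) and 1, Psmd5, lower (23.8%), with a median log2 fold change of 0.54 against 0.00 over all genes. In 39 genes every ASC library was above both FAP libraries, which held for 36.8% of all genes tested, and the exceptions were Psmd5, Psmd9, Psmd10, Psmc3, Psmf1, Psmg3 and Psmb6. With the deposited values 5 of 7 alpha-ring, 4 of 7 constitutive beta-ring, all 3 immunoproteasome, 2 of 6 ATPase, 1 of 3 other base, 2 of 8 lid and all 4 activator genes were called higher, but with a common total per library only 1, Psmb8. The log2 fold changes of Psmd1 (0.63), Psmd6 (0.60), Psmd4 and Psmd14 exceeded 0.58 without FAP replicate 1. Psmc2 was not called without ASC replicate 2. Of the core chaperones 0 were called in either direction by limma, 0 by edgeR and 0 by DESeq2, and 1 had an unadjusted p under 0.05 by limma. Their median was 0.29, or -0.27 with a common total. Psmg4 was called higher with quantile normalization (0.99), and Psmg3 lower with a common total (-0.97) or without FAP replicate 1 (-0.74). Over all 46 genes limma called 10 higher and 1 lower with quantile normalization, 7 and 1 with a common 75th percentile, and 1 and 4 with a common total per library, where the median turned to -0.02 and 25 of the 46 genes lay below 0. Of all 13601 genes tested the same scalings gave 3047 higher and 3004 lower, 2452 and 4142, and 1592 and 6317. The common total moved the median of all genes by -0.56, and the common 75th percentile moved it by -0.21. Relative to all genes the proteasome median was 0.54, 0.43, 0.54 and 0.53 higher with the deposited values, quantiles, percentile and total. As a share of all reads the 46 genes took 0.156, 0.185 and 0.147% in ASCs, which overlaps the 0.163 and 0.157% of FAPs. The 100 genes with the highest values made up 40.3% to 43.1% of all values in an ASC library, 35.9% or 36.3% in FAPs and 24.7% to 26.1% after injury. Their part in the result was not tested. Psmd5, the base chaperone, was the only gene called lower with the deposited values, at -0.72 (SE 0.26, adjusted p = 0.0309) by limma. That call was lost without ASC replicate 1 (-0.48), ASC replicate 3 (-0.65), FAP replicate 1 (-0.75) or FAP replicate 2 (-0.69) and with only the compared groups in the fit.

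**Figure D3:**
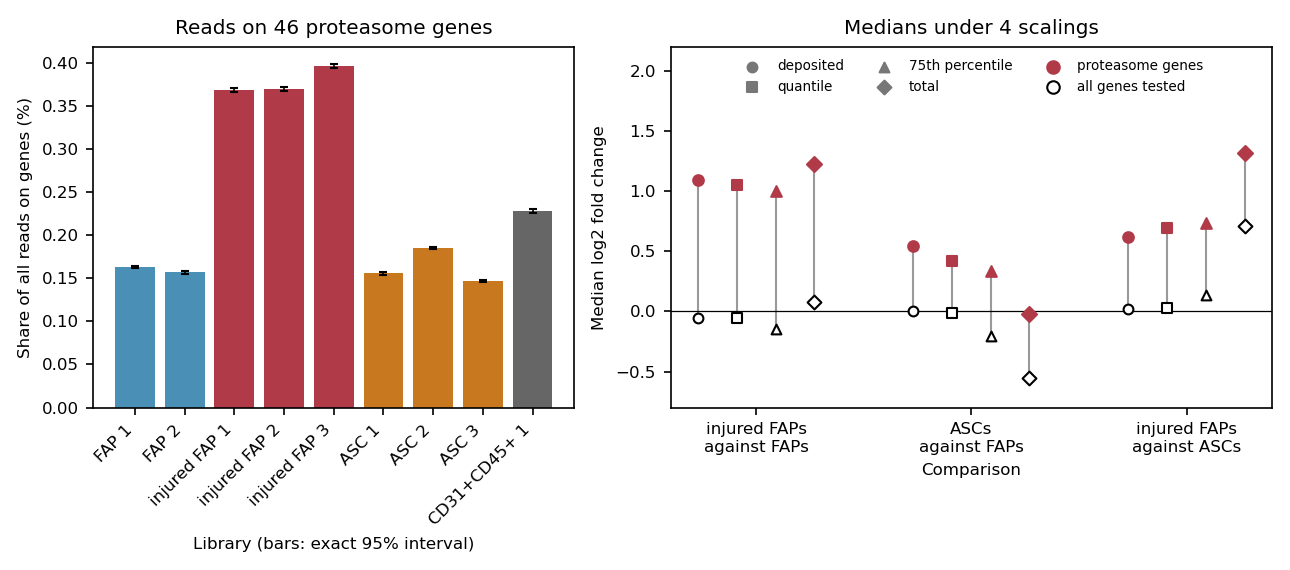
Left, share of all reads on genes (%) that fell on the 46 tested proteasome genes in each library, with exact 95% intervals; right, median log2 fold change of the proteasome genes and of all genes tested in each comparison under 4 scalings. The share is 0.368% to 0.396% in injured FAPs against 0.157% and 0.163% in FAPs, and the ASC median turns from 0.54 to -0.02 with a common total per library, where that of all genes is -0.56.

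All 3 immunoproteasome genes were above FAPs in every injured FAP and ASC library, and among the sorted groups Psmb8 and Psmb9 were highest in ASCs. Psmb8, the immune-type counterpart of Psmb5, had values of 314 and 268 in FAPs, 674, 483 and 557 in injured FAPs and 1025, 1193 and 726 in ASCs, and 1789 in CD31+CD45+ cells. Among the sorted groups ASCs were highest, and each injured FAP library lay between the ASC and FAP libraries. The lowest injured FAP value was that of replicate 2. The log2 fold change of Psmb8 by limma was 0.96 (SE 0.21, adjusted p = 0.00229) in injured FAPs and 1.72 (SE 0.21, adjusted p = 6.16e-05) in ASCs. For injured FAPs against ASCs limma gave -0.76 (SE 0.19, adjusted p = 0.00438), and with a common total per library -0.07, not called. Psmb9, the counterpart of Psmb6, had values of 123 and 112 in FAPs, 169, 160.4 and 182 in injured FAPs and 237, 277 and 246 in ASCs, and 736 in CD31+CD45+ cells. Its sorted groups stood in the same order as those of Psmb8, without overlap. Part of its reads could stem from Tap1, which overlaps it on the opposite strand. In injured FAPs the log2 fold change of Psmb9 was 0.53 (SE 0.15, adjusted p = 0.0106) by limma, not called. It was called without FAP replicate 1 (0.60), with quantile normalization (0.75), with a common total (0.67) and by edgeR (0.58). In ASCs limma gave 1.10 (SE 0.15, adjusted p = 0.000150) for Psmb9, or 0.54 and not called with a common total. Injured FAPs against ASCs gave -0.57 (SE 0.14, adjusted p = 0.00392) by limma, not called, though called without ASC replicate 1 (-0.62), ASC replicate 3 (-0.59) or injured FAP replicate 3 (-0.62), or with quantile normalization (-0.74). With a common total it turned to 0.13, not called. Psmb10, the counterpart of Psmb7, had values of 476 and 499.6 in FAPs, 931, 699.8 and 829 in injured FAPs and 794, 1082 and 693 in ASCs, and 1359 in CD31+CD45+ cells. Injured FAPs and ASCs overlapped for Psmb10, and both were above the FAP libraries. For Psmb10 limma gave 0.74 (SE 0.18, adjusted p = 0.00517) in injured FAPs, 0.78 (SE 0.18, adjusted p = 0.00412) in ASCs and -0.05 (SE 0.16, adjusted p = 0.814) for injured FAPs against ASCs. In ASCs Psmb10 was not called with a common 75th percentile (0.58) or total (0.22), and with the total it was called higher in injured FAPs than in ASCs (0.65). Psmb8 and Psmb9 lie close together on chromosome 17, on either side of Tap1, at chr17:34197721-34201454 and chr17:34181987-34187764 with 9956 bases between them, while the 48 proteasome genes lie on 16 chromosomes. Psme1 and Psme2 also lie close together on chromosome 14, with 5911 bases and the gene Emc9 between them, as do Psmb5 and Psmb11, with 3410 bases.

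The ratio of each immune-type subunit to its constitutive counterpart, per kb of exon within a library, is not changed by a scaling with 1 factor per library. Quantile normalization, which moves genes of different levels differently, was not applied to the ratios. Psmb8 to Psmb5 was 0.375 and 0.356 in FAPs, 0.418, 0.288 and 0.334 in injured FAPs, 1.15, 1.15 and 0.849 in ASCs and 2.03 in CD31+CD45+ cells. FAPs and injured FAPs overlapped and ASCs were apart, with about as much Psmb8 as Psmb5 per kb. The level of a ratio depends on the exon lengths used, while its log2 difference between groups does not. On the log2 scale the ratio of Psmb8 to Psmb5 differed by -0.09 between injured FAPs and FAPs, by 1.51 between ASCs and FAPs and by -1.60 between injured FAPs and ASCs. Psmb9 to Psmb6 was 0.0649 and 0.0695 in FAPs, 0.0547, 0.0566 and 0.0617 in injured FAPs, 0.102, 0.122 and 0.133 in ASCs and 0.339 in CD31+CD45+ cells. Here injured FAPs were below FAPs and FAPs below ASCs without overlap, with log2 differences of -0.22, 0.82 and -1.04 in the same order. Psmb10 to Psmb7 was 0.609 and 0.650 in FAPs, 0.5004, 0.411 and 0.412 in injured FAPs, 0.658, 0.828 and 0.654 in ASCs and 1.23 in CD31+CD45+ cells. This ratio was likewise lowest in injured FAPs, where it differed from FAPs by -0.52 and from ASCs by -0.69 on the log2 scale, and ASCs were 0.17 above FAPs. A two-sided exact permutation test gave p = 0.8 for Psmb8 to Psmb5 between injured FAPs and FAPs (adjusted p = 0.8, Benjamini-Hochberg over 9 tests). In every other comparison of the ratios the exact test gave the smallest p it can give, 0.1 for 3 libraries against 3 and 0.2 for 3 against 2 (adjusted p = 0.225). This test therefore could not reach 0.05 for any ratio, and no other test of the ratios was made. Without any single library only the ratio of Psmb8 to Psmb5 between injured FAPs and FAPs changed sign, with log2 differences from -0.24 to 0.03, the latter without injured FAP replicate 2.

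**Figure D4:**
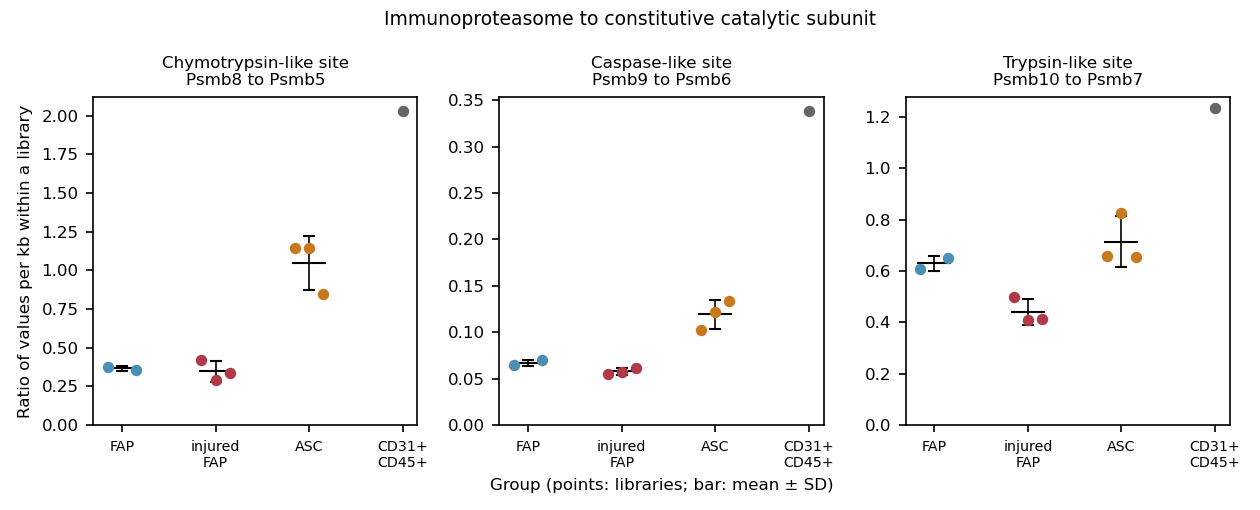
Ratio of the values per kb of exon of each immunoproteasome subunit to its constitutive counterpart (vertical axis) in each library of the 4 groups (horizontal axis; points: libraries, bars: mean ± SD where a group has more than 1 library). Psmb8 to Psmb5 lies at 0.849 to 1.15 in ASCs against 0.288 to 0.418 in all FAP and injured FAP libraries, and the other ratios are lowest in injured FAPs.

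Set side by side, injured FAPs and ASCs differed from each other in most classes. Limma called 25 of the 46 proteasome genes higher in injured FAPs than in ASCs (25.0% of all genes tested) and 1, Psmb8, lower (25.8%), with a median log2 fold change of 0.62 against 0.02 over all genes. A common total moved the median of all genes by 0.69, and a common 75th percentile moved it by 0.11. With the common total limma called 43 higher and 0 lower, where Psmb8 was at -0.07. Of all 13601 genes tested it then called 7378 higher and 1692 lower. Relative to all genes the proteasome median was 0.60 to 0.66 under the 4 scalings. With the deposited values, in 33 genes the FAP libraries were lowest, ASCs in between and injured FAPs highest with no overlap, an order found in 7.98% of all genes tested. The opposite order of the last groups, with ASCs highest, was found for 3 genes, Psmb8, Psmb9 and Psme1, and in 7.00% of all genes. These orders depend on the scaling, since with a common total 25 of the 46 genes lay below 0 in ASCs against FAPs, and Psmb9 (0.13) and Psme1 (0.27) were above ASCs in injured FAPs. With the deposited values all 3 base chaperones (median 1.52) and all 4 core chaperones (median 0.83) were called higher in injured FAPs than in ASCs, but only 2 of each with quantile normalization. Also called higher were 6 of 8 lid genes (0.71) and 4 of 6 ATPases (0.62). Psmd5 had the largest difference, 1.62 (SE 0.23, adjusted p = 0.000123) by limma, followed by Psmd10 at 1.52 (SE 0.20, adjusted p = 8.50e-05). Psmd14 led the lid at 1.21 (SE 0.14, adjusted p = 2.95e-05) by limma. Among the chaperones the call of Psmd9, 0.60, was lost without ASC replicate 3 (0.57) and that of Psmg1, 0.65, without ASC replicate 1 (0.58). With quantile normalization the calls of Psmd9 (0.50), Psmg1 (0.48) and Psmg4 (0.53) were all lost. Among the ATPases Psmc5, at 0.60, was not called without ASC replicate 3 (0.54) or injured FAP replicate 3 (0.56). Psmc4, at 0.64, was likewise not called without ASC replicate 3 (0.57). In the constitutive core 6 of 14 genes were called higher in injured FAPs (all 14 with a common total), and Psmb5 (0.83) and Psmb7 (0.64, or 0.56 and not called without ASC replicate 3) were among them. Of the activators 0 were called in either direction by limma, 0 by edgeR and 0 by DESeq2, and by limma 1 was below and 1 above ASCs at an unadjusted p under 0.05. With quantile normalization or a common 75th percentile limma called 1 higher, and 3 with a common total. Their median was -0.01 and became 0.69 with a common total per library. The immunoproteasome genes had a median of -0.57, which turned to 0.13 with a common total, and relative to all genes it was -0.59 under both. All comparisons against FAPs share the same 2 FAP libraries.

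Partners of the proteasome outside the symbol rule were examined next. Of 8 tested partners limma called 6 higher in injured FAPs (24.9% of all genes tested), at a median log2 fold change of 0.74. With quantile normalization or a common 75th percentile 4 were called higher, and with a common total 7. The partners include Psme2b, whose reads could be split with Psme2. Psme2b was called higher with the deposited values in injured FAPs (0.88) and in ASCs (0.85) by limma. Called lower were 0 by limma, 0 by edgeR and 0 by DESeq2, and 1, Akirin2, lay below FAPs at an unadjusted p under 0.05. Uchl5, a deubiquitinase of the regulatory particle, had values of 105 and 83.7 in FAPs, 424, 438 and 498 in injured FAPs and 125, 128 and 166 in ASCs. Injured FAPs had far more Uchl5 than any other library, at a log2 fold change of 2.26 (SE 0.18, adjusted p = 3.33e-06) by limma, the largest of the partners. Pomp, which matures the core together with the Psmg chaperones, had values of 647 and 543 in FAPs, 1183, 1147 and 1302 in injured FAPs and 775, 749 and 677 in ASCs, and limma gave 1.03 (SE 0.12, adjusted p = 3.75e-05) in injured FAPs. Adrm1, the ubiquitin receptor that recruits Uchl5, had values of 1585 and 1475 in FAPs, 2486, 2323 and 2154 in injured FAPs and 2914, 1959 and 1903 in ASCs, with a log2 fold change of 0.60 (SE 0.17, adjusted p = 0.00986) by limma. This call was lost without FAP replicate 2 (0.55) or injured FAP replicate 1 (0.55), and with quantile normalization (0.50) or a common 75th percentile (0.50). Akirin2, which carries proteasomes into the nucleus, was the only partner below FAPs, at 1031 and 933 in FAPs, 722, 756 and 755 in injured FAPs and 681, 778 and 692 in ASCs and -0.40 (SE 0.11, adjusted p = 0.00801) by limma, not called. In ASCs limma called 2 of the 8 partners higher (23.4% of all genes), at a median of 0.53 that became -0.03 with a common total. With a common 75th percentile 1 was called higher and 1 lower, and with a common total limma called 0 higher and 1 lower.

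Known regulators of proteasome genes were set beside them. Nfe2l1, which induces proteasome genes when proteasome activity falls, had values of 6452 and 6101 in FAPs, 6585, 6422 and 6312 in injured FAPs and 4893, 5327 and 4676 in ASCs. FAPs and injured FAPs overlapped for Nfe2l1 and ASCs were lower, at log2 fold changes of 0.04 (SE 0.09, adjusted p = 0.742) in injured FAPs and -0.34 (SE 0.09, adjusted p = 0.0100) in ASCs by limma, neither called. In ASCs Nfe2l1 was called lower with quantile normalization (-0.91) or a common total (-0.91). Nfe2l2, the antioxidant response factor that shares the TGACNNNGC core, had values of 3049.5 and 3071 in FAPs, 5228, 4958 and 5041 in injured FAPs and 13394, 10192 and 11155 in ASCs. It was highest in ASCs, without overlap, at 0.73 (SE 0.12, adjusted p = 0.000346) in injured FAPs and 1.91 (SE 0.12, adjusted p = 6.97e-07) in ASCs by limma. Ngly1, which processes Nfe2l1, had values of 535 and 521 in FAPs, 424, 471 and 513 in injured FAPs and 465, 655 and 628 in ASCs and -0.17 (SE 0.16, adjusted p = 0.353) in injured FAPs by limma, not called. Of the 4 regulators with Ddi2, the Nfe2l1 protease, limma called 1 higher in injured FAPs (24.9% of all genes) and 2 in ASCs (23.4%; 1 with a common 75th percentile or total), where the median of 0.44 became -0.12 with a common total.

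Upstream of the proteasome, 9 of 14 genes of ubiquitin supply and delivery were called higher in injured FAPs (24.9% of all genes tested) and 8 in ASCs (23.4%) by limma, at medians of 0.89 and 0.70 (0.14 in ASCs with a common total). In injured FAPs other scalings gave 8 or 9 higher, and quantile normalization 1 lower. In ASCs they gave 4 with quantile normalization, 7 with a common 75th percentile, and 2 higher and 2 lower with a common total. Rps27a, which encodes ubiquitin fused to a ribosomal protein, had values of 1217 and 1085 in FAPs, 4250.3, 5084 and 4083 in injured FAPs and 3279, 3175 and 2801 in ASCs. It rose in both groups against FAPs, by 1.95 (SE 0.12, adjusted p = 8.65e-07) in injured FAPs and 1.42 (SE 0.12, adjusted p = 5.99e-06) in ASCs on the log2 scale by limma. Vcp, the ATPase that extracts ubiquitinated proteins and hands them to the proteasome, had values of 4049.9 and 4039.8 in FAPs, 9186, 9777 and 9371 in injured FAPs and 6360.2, 5997 and 5968 in ASCs. Its order was that of most proteasome genes, with 1.22 (SE 0.09, adjusted p = 1.88e-06) in injured FAPs and 0.59 (SE 0.09, adjusted p = 0.000241) in ASCs by limma, the latter not called without ASC replicate 1 (0.56). It was also not called by edgeR (0.55), with quantile normalization (0.05), a common 75th percentile (0.38) or a common total (0.03).

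Genes of class I antigen processing and interferon response, which accompany the immunoproteasome, were led by ASCs. All 10 were called higher in ASCs by limma (23.4% of all genes tested), at a median log2 fold change of 1.47. This became 7 with quantile normalization, 8 with a common 75th percentile and 6, at a median of 0.90, with a common total. In injured FAPs limma called 4 higher (24.9%), at a median of -0.02 that became 0.12 with a common total. Tap1, a subunit of the peptide transporter and neighbour of Psmb9, had values of 671 and 669 in FAPs, 1469, 1259 and 1335 in injured FAPs and 3397, 2561 and 2120.3 in ASCs, with 1.01 (SE 0.17, adjusted p = 0.000437) in injured FAPs and 1.98 (SE 0.17, adjusted p = 5.83e-06) in ASCs by limma. As for Psmb8, ASCs were highest and injured FAPs intermediate, without overlap. B2m, the light chain of class I molecules, had values of 11577 and 12737 in FAPs, 13999, 10373 and 11872 in injured FAPs and 42815, 33687 and 37059.9 in ASCs, with -0.02 (SE 0.15, adjusted p = 0.921), not called, in injured FAPs and 1.63 (SE 0.15, adjusted p = 9.04e-06) in ASCs by limma. Irf1, an interferon-response factor that acts on Psmb8 and Psmb9, had values of 3029 and 3044 in FAPs, 2281, 1957 and 2206 in injured FAPs and 6587, 7927 and 10089 in ASCs, with -0.50 (SE 0.16, adjusted p = 0.0164), not called, in injured FAPs and 1.41 (SE 0.16, adjusted p = 3.38e-05) in ASCs by limma. All injured FAP libraries were below both FAP libraries for Irf1, the reverse of Psmb8. Irf1 was called lower in injured FAPs with quantile normalization (-0.67), a common 75th percentile (-0.60) or a replicate block (-0.59).

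Autophagy, the other main route of protein degradation, showed no rise like that of the proteasome genes in injured FAPs. Of 12 autophagy genes limma called 4 lower (27.7% of all genes tested), or 5 with quantile normalization or a common 75th percentile, at a median log2 fold change of -0.30. Called higher were 0 by limma, 0 by edgeR and 0 by DESeq2, and 2 lay above FAPs at an unadjusted p under 0.05. Sqstm1, a receptor that links ubiquitinated cargo to autophagy, had values of 9803 and 9128 in FAPs, 10293, 8329 and 10571 in injured FAPs and 30277, 25386 and 26467 in ASCs, and limma gave 0.03 (SE 0.13, adjusted p = 0.838), not called, in injured FAPs and 1.53 (SE 0.13, adjusted p = 6.21e-06) in ASCs. Tfeb, a transcription factor of lysosomal and autophagy genes, had the largest fall, with values of 978 and 1000.1 in FAPs, 384, 396 and 373 in injured FAPs and 350.4, 553 and 545 in ASCs and a log2 fold change of -1.36 (SE 0.18, adjusted p = 0.000100) by limma. Atg5 had the highest log2 fold change of the list in injured FAPs, 0.41 (SE 0.14, adjusted p = 0.0247) by limma, not called, with values of 445 and 369.7 in FAPs, 536, 522 and 562.9 in injured FAPs and 357, 454 and 422 in ASCs. In ASCs limma called 3 autophagy genes higher (23.4% of all genes) and 1 lower (23.8%), with 2 higher after quantile normalization and 1 with a common 75th percentile or total, at a median of 0.44 that became -0.12 with a common total.

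**Figure D5:**
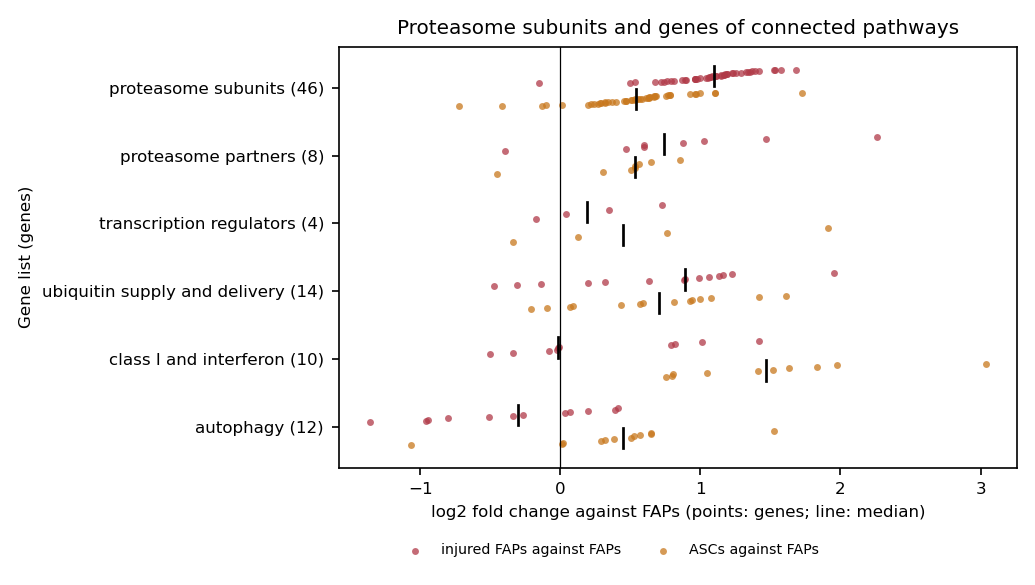
Log2 fold change against FAPs (horizontal axis) of each proteasome gene and of each gene of the 5 connected lists (vertical axis, number of genes in parentheses) in injured FAPs and ASCs, with the median as a line. In injured FAPs the medians are 1.10 for the proteasome and -0.30 for autophagy, and in ASCs the class I list is highest at 1.47; with a common total the ASC medians of the proteasome, partners, regulators and autophagy fall below 0.

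Marker lists of other cell types were set beside the proteasome results, and their part in the result was not tested. The 15 leukocyte markers summed to 292 and 546 in FAPs, 765, 3415 and 657 in injured FAPs and 532, 454 and 428 in ASCs, against 34725 in CD31+CD45+ cells, where Cd74 was the most abundant at 14743. In both FAP libraries 11 of the 15 were at 0, among them Ptprc, and Cd3e was at 0 in all 8 sorted libraries. Injured FAP replicate 2 had the highest leukocyte sum, led by Lyz2 at 725, and the lowest Psmb8 and Psmb10 of the injured FAP libraries. Without it the count of proteasome genes higher in injured FAPs was again 43. The 14 endothelial markers summed to 18307 and 16343 in FAPs, 12033, 12270.4 and 10134 in injured FAPs and 11628, 9936 and 11246 in ASCs, against 442660.0 in CD31+CD45+ cells, led by Eng in FAPs and injured FAPs and by Tek in ASCs. Vwf, Emcn, Cldn5 and Plvap were at 0 in both FAP libraries, and Pecam1 in FAP replicate 2. All 14 were above 0 in every injured FAP and ASC library, so these genes did not follow the sum. The 5 pericyte and smooth muscle markers summed to 18795 and 16578 in FAPs, 8388, 8091 and 8464 in injured FAPs and 1169.8, 726 and 857 in ASCs, led by Rgs5, Acta2, Cspg4 or Des. These pericyte sums were thus highest in FAPs, where nearly all proteasome genes were lowest. The 7 muscle fibre markers, led by Acta1 or Tnnt3, summed to 765 and 928 in FAPs, 279, 281 and 224 in injured FAPs and 157, 109.9 and 151 in ASCs. The 5 satellite cell markers summed to 1121 and 1081, 4453, 4262 and 4096 and 2801, 2767 and 2660.1 in these groups. Vcam1 alone had 1055 and 953, 4402.5, 4223 and 4060 and 2795, 2761 and 2658, so the order of the sum was that of Vcam1. The rest of the list was together highest in FAPs and lowest in ASCs, where Pax7 was at 0. The 4 adipocyte markers, led by Plin1 or Adipoq, summed to 15.2 and 21.6, 6.28, 6.97 and 1.53 and 113, 96.3 and 109 in the same groups.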

How the data were processed

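The authors deposited 1 table of signal values per gene. Multiplied by 1 size factor per library, 100% of these values became whole reads within a tolerance of 0.1. By the submitters' notes the reads were checked with FastQC, aligned to mm10 with HISAT2, counted with featureCounts of Subread and analysed with DESeq2. How the size factors were made and whether counting used strand are not stated. Reads of Psmb9 and Tap1, Psmb7 and Nek6, Psmc3 and Slc39a13, Psmd5 and Cutal, Psmd13 and Sirt3, Psme1 and Emc9, Psmd9 and Hpd, Psma2 and AW209491, Psma4 and AY074887, Psmd1 and Htr2b or Gm21972, Psmg3 and Gm26938, and Psme2 and its copy Psme2b can therefore not be told apart with certainty. The table also held 2 empty columns. Gene positions and exon lengths came from GENCODE M21 on GRCm38. The length of a gene joined the exons of all its transcripts paired with a RefSeq record, or of all its transcripts where none was paired. Levels per kb, and ranks between genes, depend on this choice.

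Because the values are normalized, limma 3.58.1 in R 4.3.3 was fitted to log2(value + 1) of the ASC, FAP and injured FAP libraries together, with a trended variance and Benjamini-Hochberg adjustment over the 13601 genes that averaged 10 or more. The pseudocount of 1 understates fold changes of low genes. Genes were called at an adjusted p below 0.05 with a log2 fold change beyond 0.58, which gave 7153 genes for injured FAPs against FAPs, 6416 for ASCs against FAPs and 6909 for injured FAPs against ASCs. On the recovered reads edgeR 4.0.16 called 7303, 6450 and 7000, and DESeq2 1.42.0 called 7227, 6412 and 6865. Named genes were the catalytic subunits, activators, Psmf1, Psmd4, Psmd10, Psmd14 and Psmg1, the highest and lowest fold change in injured FAPs of each class with at least 3 tested genes, and Pomp, Adrm1, Nfe2l1, Vcp, Sqstm1, Tap1, B2m, Irf1 and extremes of the connected lists. Psmd5, Psmc1 and other genes named beyond that rule were chosen after their values were seen, as were the ratios within a library and their alternatives. Alternatives were other pseudocounts (0.5 and 8), no filter or a mean of 50, quantile normalization, a common 75th percentile or total, adjusted p alone, only the compared groups, a replicate block, each library left out, edgeR and DESeq2. The main limma fit and the edgeR and DESeq2 fits were tested on simulated reads, in which far fewer genes changed than in these data. The other alternatives were not tested in this way. The members and lists were chosen with earlier results of these data known. The CD31+CD45+ library entered no test. Ratios were compared with a two-sided exact permutation test, and intervals of shares are exact 95% binomial ones, which cover counting error only.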

Additional observations from a re-analysis of the deposited data

Results flagged for a closer look

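The single library of CD31+CD45+ cells, which entered no comparison, had 7 proteasome genes for which the lower end of the exact 95% counting interval was above every ASC and FAP library. It had a value of 1789 for Psmb8, 736 for Psmb9 and 1359 for Psmb10, the immunoproteasome subunits. Psme1 of the interferon-inducible activator was at 2794, the ATPase Psmc1 at 1287, the regulator Psmf1 at 672 and the core chaperone Psmg4 at 179. Of these, 5 (Psmb8, Psmb9, Psmb10, Psme1 and Psmf1) were in this way also above all 3 injured FAP libraries. Psmc3, Psmd5, Psmd10, Psme2, Psmg3 and Psma8 were above every ASC and FAP library by value alone. By contrast, 39 of the 46 tested genes were below all 3 injured FAP libraries. The matching shares over all genes tested are not at hand, so whether proteasome genes differ from other genes in these counts was not tested. There is no replicate of this library, so these differences have no replicate check.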

How the results depend on the processing

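Injured FAPs against FAPs gave 43 to 45 proteasome genes higher and 0 lower under every alternative (limma, edgeR and DESeq2; 0 lower at an unadjusted p under 0.05 by limma). For ASCs against FAPs the 21 higher became 10 with quantile normalization, 7 with a common 75th percentile, 1 with a common total per library and 34 by adjusted p alone, and the 1 lower (Psmd5) became 4 with the common total and 0 with only the compared groups in the limma fit. For injured FAPs against ASCs the 25 higher became 43 with the common total, and the 1 lower became 2 with quantile normalization, 0 with the common total and 3 by adjusted p alone. The common total also moved the calls over all 13601 genes tested. They became 1592 higher and 6317 lower for ASCs against FAPs and 7378 and 1692 for injured FAPs against ASCs. Counts by adjusted p alone rise by construction, and for the other changes the cause was not tested.

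Leaving out 1 library at a time gave 43 to 43 higher and 0 to 0 lower for injured FAPs against FAPs, 18 to 24 and 0 to 1 for ASCs against FAPs, and 20 to 27 and 1 to 2 for injured FAPs against ASCs. Where that leaves 1 FAP library, it is assumed to vary like the other groups. With the common total the uncalled differences of Psmb10 (0.65), Psme2 (0.64) and Psmf1 (0.68) between injured FAPs and ASCs turned positive, and the cause was not tested. Of 2400 recomputed results of 40 genes chosen by rule in the 3 comparisons, 2245 kept their call, 84 newly passed the thresholds, 68 no longer passed them and these 3 reversed. Psme1 (0.27) and Psmb9 (0.13) also turned positive with the common total but stayed uncalled.

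A replicate block gave 43 higher and 0 lower, 22 and 1, and 25 and 1 in the 3 comparisons. Libraries with the same number correlated at -0.0545 to 0.0446 in their deviations from the group means, none over 0.1, so the numbers do not pair the samples. Values of 3 reads, 2.29 to 4.71, limit Psma8 and Psmb11 only.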
